A study of Rattus norvegicus with 108 samples.

Results

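Ribosome-rich cells of the rat dentate gyrus were compared between animals given fluoxetine and animals given water. A cell counted as ribosome-rich when 2% or more of its UMIs (unique molecular identifiers, each standing for 1 captured RNA molecule) came from genes of cytosolic ribosomal proteins. By this boundary 2121 of the 3347 cells of both regions were ribosome-rich (63.4%). The lowest share among the chosen cells was 2.0010% and the highest among those left out was 1.9958%, and 177 cells (5.29%) lay between 1.5% and 2.5%. The animals were male Long-Evans rats, 2 months old at the start, that drank fluoxetine at 18 mg/kg (FT) or plain water (Sham) for 6 weeks. Dorsal (dorDG) and ventral (venDG) dentate gyrus were punched from fresh brain, and each replicate pooled 3 animals. There were 4 dorDG FT, 5 dorDG Sham, 5 venDG FT and 5 venDG Sham replicates, so 9 FT replicates stood against 10 Sham replicates. The methods describe both a papain-dissociated cell suspension and a nucleus suspension from portions of the same tissue, the labels speak of nuclei alone, and neither says which reaction held which.

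Fluoxetine blocks the serotonin transporter, which returns released serotonin to the nerve ending, and is given over weeks as an antidepressant. The dentate gyrus is the entry field of the hippocampus. Its granule neurons receive cortical input and project to CA3. Its dorsal end is tied more to spatial memory and its ventral end more to emotion. Messenger RNAs of ribosomal proteins are short, stable and abundant in the cytoplasm, and they make up a different fraction of the RNA from cell type to cell type.

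The ribosome-rich cells were mostly glia and cells of the vessel wall. Grouped by expression and named from marker genes, 487 cells were Microglia-like, 457 Oligodendrocyte-like, 368 Endothelial-like and 206 OPC-like (oligodendrocyte precursors). Smaller classes were Astrocyte-like with 115 cells, Mural-like with 94, Granule-like with 93 and Inhibitory neuron-like with 55. The other 246 cells (11.6%), in 6 of 24 clusters, stayed unnamed. Clusters of 72 and 53 cells among them had 7 and 6 markers of 1 type raised. They were left unnamed for shallow cells, at 0.255 and 0.254 of the replicate's median UMIs, with no such marker among their leading genes. In the first, 22 of 24 cells annotated by the authors were BergGlia, and in the second 30 of 30 were Endothelial. The class shares below do not count these cells in any class. Of the dorDG cell types annotated by the authors, 92.2% of Endothelial and 90.7% of Microglia1 cells were ribosome-rich, against 37.3% of AstroSub1, 20.2% of Granule and 20.4% of InhibNeuron cells. The annotation and the markers did not always meet. The class that held most ribosome-rich cells annotated Mossy was Mural-like (30 of 64), and all 30 cells annotated InhibNeuron fell in the Granule-like cluster. The leading genes of that cluster included Gpr22, Plk5, Bdnf, Icam5 and Slc17a7. Its name was a near tie, with 5 granule and 4 excitatory markers raised. The Inhibitory neuron-like name was as close, with 3 inhibitory and 2 excitatory markers raised in shallow cells (0.268 of the replicate's median UMIs). Of the 11 annotated cells in that cluster, 6 were Granule. Microglia-like clusters were led in part by the chemokine and cytokine genes Ccl2, Ccl7, Il1a and Il1b. The granule neuron markers, which define the tissue, were low in the sums of ribosome-rich cells, with 2.12 to 3.84 UMIs per 10000 in FT and 1.58 to 4.89 in Sham replicates for 7 genes together.

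The ribosomal share chose the cells, so the values of that share are a description without a test. Ribosome-rich cells made up 49.7% to 85.5% of a replicate's cells in FT (median 77.8%) and 28.0% to 81.1% in Sham (median 54.0%). Their median ribosomal share was 5.17% to 6.18% in FT and 4.60% to 5.97% in Sham, so both measures overlapped between treatments. A replicate held 84 to 285 ribosome-rich cells in FT and 16 to 187 in Sham. Replicates 1 and 2 of each group joined 2 reactions, and every other replicate had 1. Second reactions held 72 of the ribosome-rich cells, and first or single reactions 2049. The percentages above count the cells of all reactions. The summed UMIs were 531868 to 674824 per dorDG FT, 147603 to 607259 per dorDG Sham, 528808 to 1355155 per venDG FT and 107326 to 750963 per venDG Sham replicate. Replicate 3 of venDG Sham, with 16 cells, and replicate 3 of dorDG Sham, with 28, were the smallest. In venDG Sham replicate 3 the erythroid markers summed to 315 UMIs per 10000, against a median of 16.4 in Sham and 10.3 in FT. The choroid plexus and ependymal markers, nearly all of it the thyroxine carrier Ttr, summed to 21.9 in dorDG FT replicate 4 against an FT median of 0.0967. The part of these signals in the results below was not tested. There were 8 ribosome-rich cells that shared a barcode with another.

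Depth and the mitochondrially encoded share of UMIs were compared first, since they bear on everything else. The median cell of a replicate held 3990 to 6404 UMIs in FT (median 5188) and 3411 to 7206 in Sham (median 5416). Averaged over regions, FT minus Sham was -286 UMIs (two-sided exact permutation test within region, p = 0.532, adjusted p = 0.799 over 3 measures). That difference was -17.8 UMIs without both small Sham replicates, and -524 without venDG Sham replicate 1. Genes per cell ran from 1799 to 2532 in FT and from 1570 to 3004 in Sham (exact permutation p = 0.405, adjusted p = 0.799), a difference of -137 genes that was -40.4 without both small Sham replicates. The mitochondrially encoded share was 5.42% to 7.60% in FT and 5.31% to 9.37% in Sham (exact permutation p = 0.803, adjusted p = 0.803). The Sham replicates spread more widely than the FT replicates in all 3 measures, and the groups overlapped in each.

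**Figure D1:**
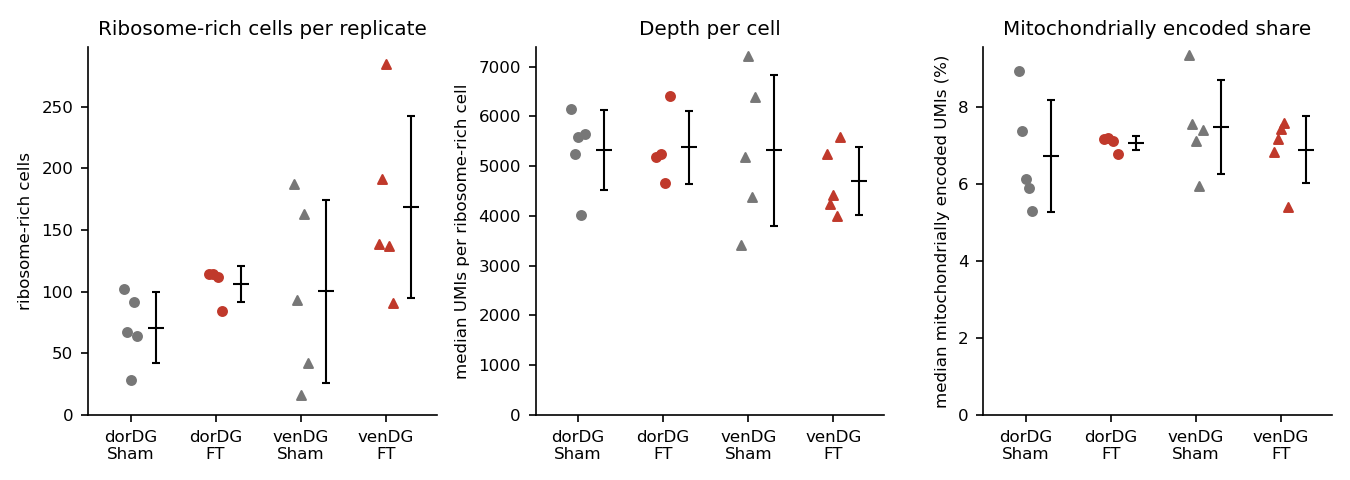
Number of ribosome-rich cells, median UMIs per ribosome-rich cell and median mitochondrially encoded share of UMIs (%), each point being 1 replicate (circles dorDG, triangles venDG, grey Sham, red FT), with the mean and SD to the right of each group. The cell number runs from 16 to 285 and the groups overlap in depth and in mitochondrial share.

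Averaged over both regions, no cell class differed in share between treatments beyond the spread of the replicates. Endothelial-like cells were 8.07% to 24.8% of the ribosome-rich cells in FT (median 15.8%) and 6.25% to 39.3% in Sham (median 22.1%). Their difference, the largest of the 8, was -6.75 points averaged over regions, -11.0 in dorDG and -2.46 in venDG (two-sided exact permutation test within region, p = 0.0591, adjusted p = 0.432 over 8 classes). Astrocyte-like cells were 1.46% to 13.1% in FT (median 6.14%) and 0% to 9.38% in Sham (median 2.56%). FT was 2.55 points higher, with 1.41 points in dorDG and 3.68 in venDG (exact permutation p = 0.108, adjusted p = 0.432). At a Leiden resolution of 1.0, a coarser grouping, the Astrocyte-like difference was 5.46 points. Adjusted p-values of these 2 classes stayed at or above 0.126 and 0.148 under every alternative tried. Microglia-like cells, the most numerous class, took 14.0% to 28.1% in FT and 12.5% to 33.3% in Sham, a difference of -2.60 points (adjusted exact permutation p = 0.643). For Granule-like and Mural-like cells the difference was 1.44 and 1.10 points (adjusted exact permutation p = 0.643 for each). The Mural-like value averaged opposite signs, 3.47 points in dorDG and -1.26 in venDG. In dorDG the lowest Mural-like share of FT, 4.46%, lay above the highest of Sham, 4.35%. Shares were not tested within a single region. The remaining 3 classes differed by 1.18 points (Oligodendrocyte-like), 0.345 points (OPC-like) and -0.407 points (Inhibitory neuron-like), with adjusted exact permutation p = 0.869, and each of these 3 changed sign when single replicates were left out. Without both small Sham replicates the differences were 0.528 (Granule-like), 0.212 (Mural-like), 1.36 (OPC-like) and 0.465 points (Inhibitory neuron-like), none past the test.

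**Figure D2:**
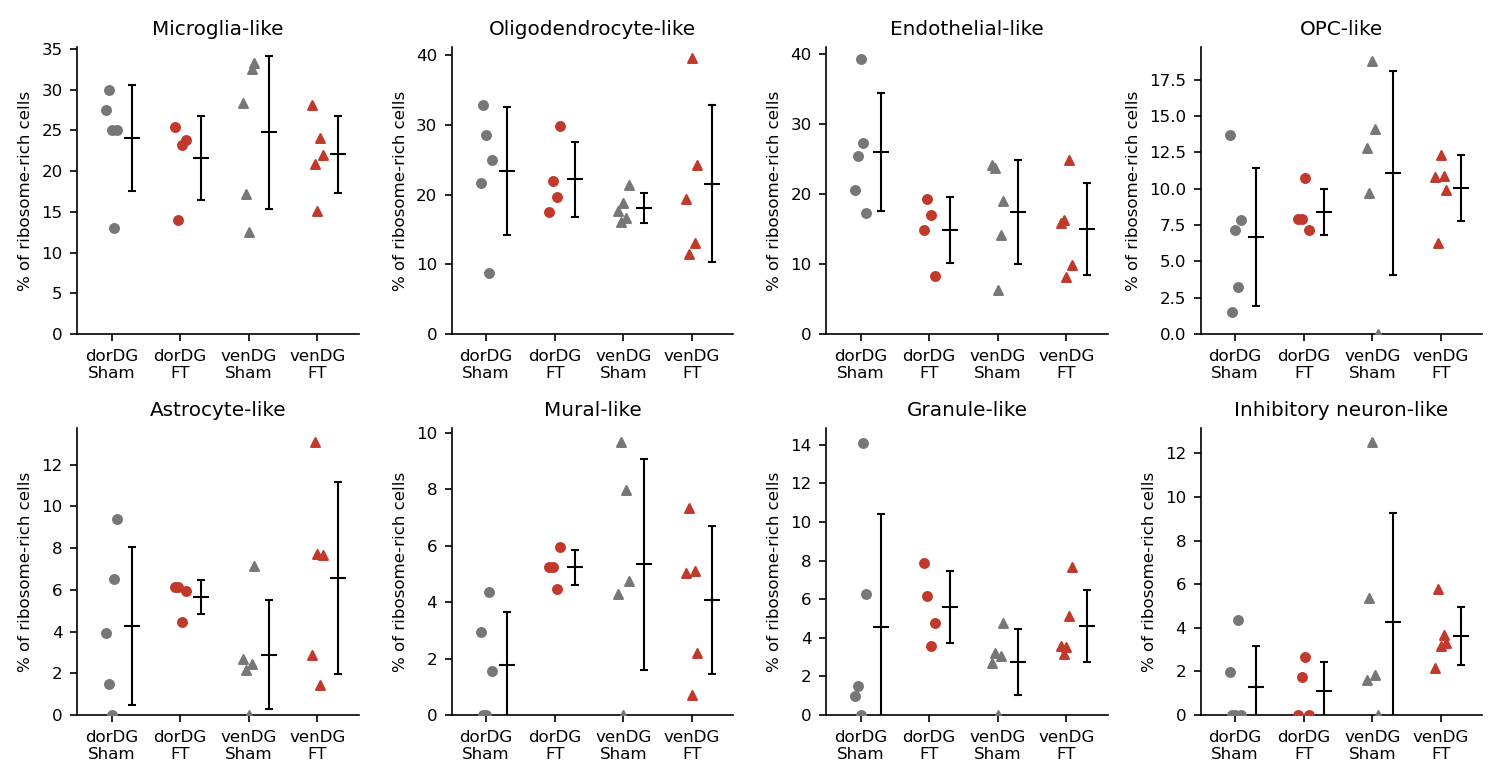
Share of 8 marker-named classes among the ribosome-rich cells of each replicate (%, symbols and colours as for the cell numbers, mean and SD to the right, bars clipped at 0). Endothelial-like shares reach 39.3% in Sham and 24.8% in FT, and Astrocyte-like shares 13.1% in FT and 9.38% in Sham. With dorDG and venDG replicates pooled, every class overlaps between treatments. Within dorDG the lowest Mural-like share of FT, 4.46%, lies above the highest of Sham, 4.35%.

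Across all ribosome-rich cells no gene passed the test for fluoxetine. UMIs were summed per replicate and fitted with edgeR's quasi-likelihood test with region as a covariate, and a gene was called at an adjusted p of at most 0.2 with a log2 fold change of at least 0.32 in size, the thresholds of the study's methods. Of 3747 genes with at least 0.5 UMIs per 10000, 0 were called (0%), and the smallest Benjamini-Hochberg adjusted p was 0.544. At an unadjusted p under 0.05 there were 149 genes (3.98%), 72 higher and 77 lower in FT. DESeq2 on the same sums called 3 genes (0.0801%), and limma on log2(UMIs per 10000 + 0.01) called 0, with 174 and 179 genes at an unadjusted p under 0.05. With all replicates taken as independent, the fit bounded most changes. The 95% interval of the log2 fold change lay within a 1.5-fold change for 2613 genes (69.7%) and within a 2-fold change for 3572 (95.3%), and the median standard error was 0.17. The median log2 fold change over all genes was -0.01, and no gene had FT and Sham replicates that failed to overlap. The paper counts 5 replicates of 3 animals per treatment group and punched both regions from the brains of these groups. The regions therefore most likely share animals, although the labels do not state it. The main fit treats 9 FT and 10 Sham replicates as independent, so its p-values may be too small and its intervals too narrow. A fit with an estimated correlation between regions also called 0 genes, with 87 at an unadjusted p under 0.05.

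The 20 genes with the smallest unadjusted p, unnamed loci left out, 8 higher and 12 lower in FT, are given as values, since none was called by edgeR. The lowest p belonged to Ubac2, which codes for a ubiquitin-binding membrane protein of the endoplasmic reticulum. It stood at 0.430 to 0.726 UMIs per 10000 in FT (median 0.613) and 0.708 to 1.10 in Sham (median 0.838), a log2 fold change of -0.57 ± 0.13 (SE, adjusted p = 0.544, edgeR). All 9 FT replicates lay below the Sham median, and the ranges overlapped only narrowly. Fbxo2, an F-box protein that marks glycoproteins for ubiquitination, was at 0.449 to 1.16 in FT (median 0.696) and 0.124 to 0.689 in Sham (median 0.368), a log2 fold change of 0.87 ± 0.21 (SE, adjusted p = 0.544, edgeR). All 9 FT replicates lay above the Sham median. DESeq2 called both, together with the unnamed locus LOC100913000 (log2 fold change 0.56 in edgeR), which was added here after its values were seen. DESeq2's adjusted p for Ubac2 was 0.0718, the smallest that any of 33 alternatives gave to any of the 20 genes.

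Several of the higher genes are known from astrocytes. Gfap, the astrocytic intermediate filament, ran from 1.05 to 11.2 UMIs per 10000 in FT (median 2.16) and from 0.817 to 2.70 in Sham (median 1.22), a log2 fold change of 1.43 ± 0.43 (SE, adjusted p = 0.997, edgeR). Replicate 2 of both regions carried the high end, with 9.85 in dorDG and 11.2 in venDG, and the log2 fold change fell to 1.05 without the former and to 0.87 without the latter. Aldoc, an aldolase found mainly in astrocytes, was at 2.61 to 7.80 in FT (median 3.39) and 0.744 to 3.92 in Sham (median 2.08), with a log2 fold change of 0.83. Bcan, which codes for brevican of the brain's extracellular matrix, was at 1.0 to 3.27 in FT and 0.186 to 1.71 in Sham, with a log2 fold change of 0.82. Both had their highest value in venDG FT replicate 2, the replicate with the largest Astrocyte-like share (13.1%). Gstp1, a glutathione transferase, had a log2 fold change of 0.39 (4.57 to 10.0 in FT, 3.63 to 6.50 in Sham). Ndufa11, a subunit of complex I, had 0.42, with 1.08 to 1.57 in FT and 0.595 to 1.29 in Sham. Pttg1ip at 0.44 and Mmd2 at 0.51 completed the higher genes. A sum over all cells does not tell a larger number of cells of a type from a higher level in each.

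Among the lower genes were Tgfb1, the transforming growth factor, and Ltbp1, which holds latent TGF-beta in the matrix. Tgfb1 stood at 0.246 to 0.623 UMIs per 10000 in FT (median 0.454) and 0.324 to 1.04 in Sham (median 0.643), a log2 fold change of -0.67. Ltbp1 was at 0.480 to 0.686 in FT and 0.599 to 1.22 in Sham, with -0.53. All 9 FT replicates lay below the Sham median for both genes. Cyr61, a matricellular protein gene, had the largest difference, -1.48 with a 95% interval from -2.43 to -0.53, and its Sham values alone ran from 0.208 to 2.86. Isg15, a ubiquitin-like protein induced by interferon, had -0.80, and Gadd45a, a gene of the DNA damage response, -0.47. The mitochondrial aspartate-glutamate carrier Slc25a13 had -0.42, nucleoredoxin (Nxn) -0.57, and the kinases Pask and Tec -0.56 and -0.49. Hs3st5, a heparan sulfate sulfotransferase, had -0.61, and Poldip2 had -0.48. The adjusted p of the 18 genes after Ubac2 and Fbxo2 was between 0.544 and 0.997 (edgeR). Of the 19 genes that could also be fitted within each region, 19 had the same sign in dorDG and venDG, which follows in part from choosing them on the pooled fit.

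**Figure D3:**
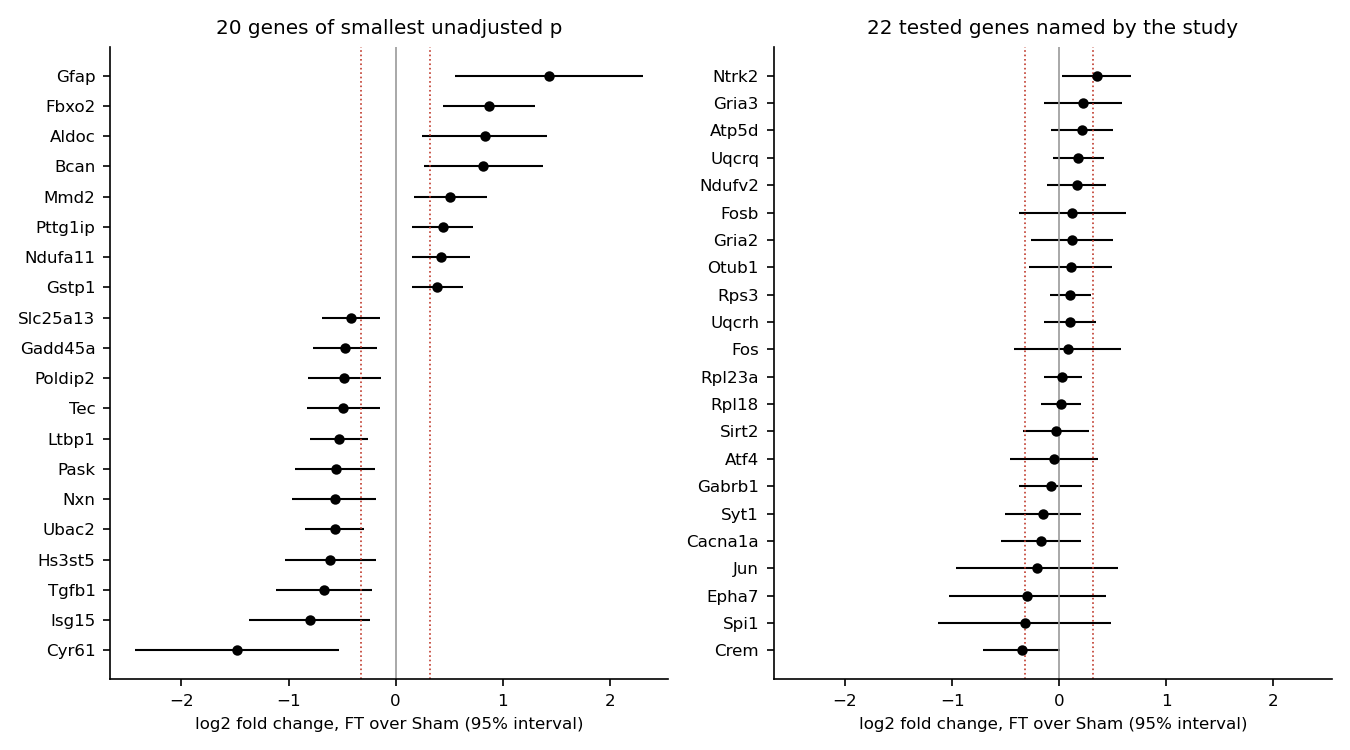
Log2 fold change of FT over Sham with its 95% interval (edgeR, region as covariate) for the 20 genes of smallest unadjusted p, left, and the 22 tested genes that the study names, right. Dotted lines mark a log2 fold change of 0.32 in either direction. Intervals of the left genes were selected to miss 0, and 21 of the 22 intervals on the right include it.

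Of 32 genes that the study names for fluoxetine or the dentate gyrus, 22 passed the filter on low values, and edgeR called 0 of them. The study named most of them within single cell types of dorDG, and Otub1 and Sirt2 in bulk tissue. The sum here mixes cell types of both regions, and held 49.1% of the Oligodend1 and 20.4% of the InhibNeuron cells of dorDG. The count is therefore not a check of the study's calls. The study chose many of these genes on cells of the same samples, so they are not independent evidence of any direction. There were 13 above 0 and 9 below, between -0.35 and 0.35 on the log2 scale, and for 20 of them the 95% interval lay within a 2-fold change. Ntrk2, the receptor of brain-derived neurotrophic factor, was at 1.79 to 3.53 UMIs per 10000 in FT (median 2.35) and 1.12 to 2.46 in Sham (median 2.00). Its log2 fold change of 0.35 ± 0.15 (SE, adjusted p = 0.997, edgeR) was the only one whose interval missed 0, from 0.03 to 0.67, and it was 0.07 in dorDG and 0.59 in venDG. Crem, a cAMP-responsive transcription factor, had -0.35 (1.04 to 2.14 in FT, 1.08 to 2.44 in Sham).

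The activity-induced genes Fos and Fosb were abundant in these cells, and their difference between treatments was smaller than the spread of the replicates. Fos stood at 5.72 to 24.0 UMIs per 10000 in FT (median 14.6) and 6.80 to 23.4 in Sham (median 13.6), a log2 fold change of 0.08 with an interval from -0.42 to 0.58. Fosb had 0.12, Jun -0.21 and the stress-response factor Atf4 -0.05. The glutamate receptor subunits Gria2 and Gria3 had 0.12 and 0.22, and the GABA receptor subunit Gabrb1 -0.08. Genes of the presynapse and its channels, Syt1 and Cacna1a, had -0.15 and -0.17, and the guidance receptor Epha7 had -0.30. The respiratory chain genes Uqcrh, Uqcrq, Ndufv2 and Atp5d had 0.10, 0.18, 0.17 and 0.21. Otub1, a deubiquitinase, had 0.11, the deacetylase gene Sirt2 -0.03, and Spi1, which codes for the microglial factor PU.1, -0.32 with an interval from -1.13 to 0.48. The ribosomal protein genes Rps3, Rpl18 and Rpl23a, which are among those that chose the cells, had 0.10, 0.02 and 0.03.

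Lists of genes with a shared role are described by counts and medians beside the median of all 3747 genes, which was -0.01 with 48.0% of genes above 0. Nuclear genes of oxidative phosphorylation, the chain that makes ATP in mitochondria, lay above 0 for 67 of 70 tested members, with a median log2 fold change of 0.15. None was called. At an unadjusted p under 0.05 there were 10 members, all higher in FT: Ndufs4, Ndufc1, Ndufs7, Ndufa2 and Ndufa11 of complex I, Cox6c of complex IV, and Atp5e, Atp5g2, Atp5l and Atp5i of the ATP synthase, between 0.22 and 0.42. The list summed to 159 to 177 UMIs per 10000 in FT (median 169) and 114 to 196 in Sham (median 145). The FT replicates were close together inside the wider Sham range, in which dorDG Sham replicate 2 was lowest and dorDG Sham replicate 4 highest. Cox4i1, the most abundant member, was at 7.22 to 8.07 in FT and 5.48 to 8.54 in Sham (log2 fold change 0.16, interval -0.01 to 0.33). The list's median was 0.11 in dorDG alone and 0.17 in venDG alone, between 0.12 and 0.21 under other tests and scalings, and between 0.10 and 0.17 when any 1 replicate was left out. Within classes it was -0.02 in Endothelial-like, 0.08 in Microglia-like and 0.06 in Oligodendrocyte-like cells.

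Transcripts of the mitochondrial genome, which encodes further subunits of that chain, lay above 0 for 3 of 14 tested features, the 14 including 2 unnamed loci with the lowest values. Their median was -0.06, with 0.00 in dorDG alone and -0.19 in venDG alone. Mt-atp6, the most abundant, ran from 155 to 199 UMIs per 10000 in FT and from 130 to 255 in Sham (log2 fold change -0.05). Mitochondrial ribosomal proteins lay above 0 for 16 of 26 (median 0.08), proteasome subunits for 20 of 33 (0.11) and glycolytic enzymes for 11 of 16 (0.12). Psma7 of the proteasome had 0.15 and the glycolytic Aldoa 0.12, each the most abundant of its list. Translation factors lay above 0 for 15 of 35, with a median of -0.02 that was 0.02 in limma, and their most abundant member Eif1 had -0.06. For the cytosolic ribosomal proteins 71 of 90 lay above 0, with a median of 0.07, and Rpl41 was at 22.8 to 31.2 in FT and 19.5 to 29.2 in Sham. These genes chose the cells, so that count is a description only.

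**Figure D4:**
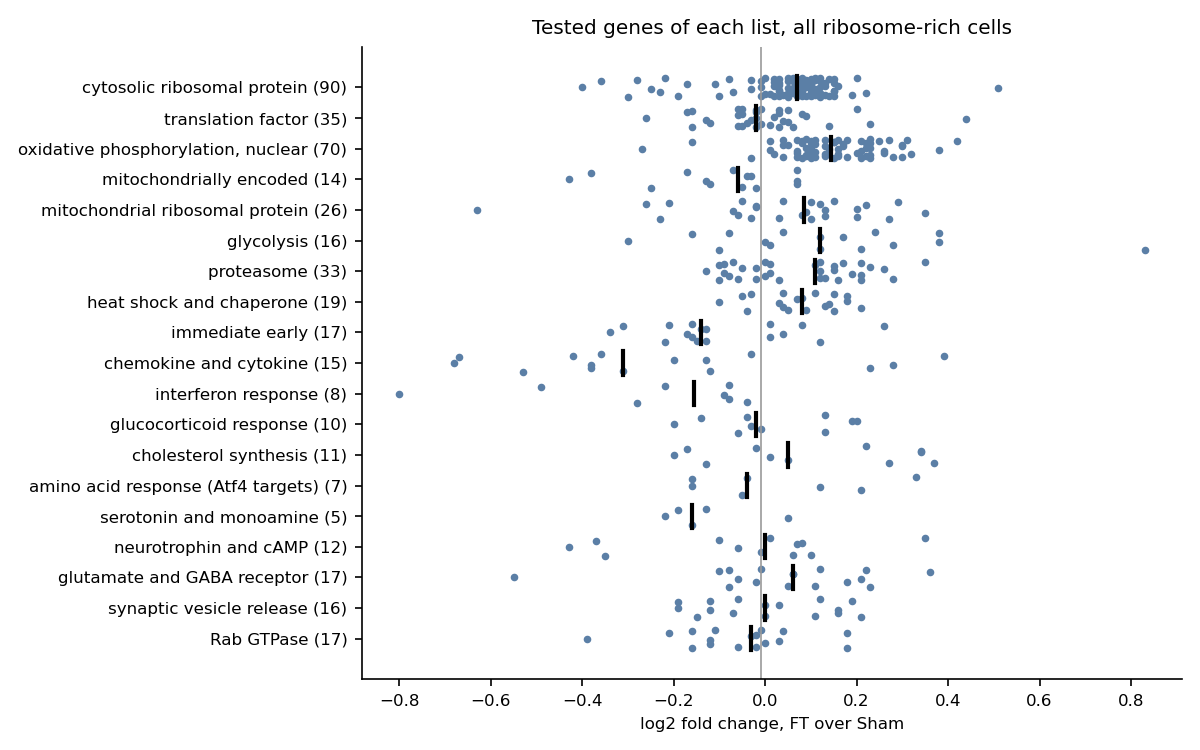
Log2 fold change of FT over Sham for every tested member of each gene list (points, with the number of members in parentheses), with the list's median as a black bar and the median of all 3747 genes, -0.01, as a grey line. The nuclear oxidative phosphorylation genes sit mostly right of the line (67 of 70 above 0) and the interferon response genes left of it (0 of 8 above 0), and no member was called.

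Genes of cell activation spread widely, and none was called. Immediate early genes lay above 0 for 6 of 17, with a median of -0.14. That median was 0.05 in dorDG alone and -0.28 in venDG alone, and ran from -0.21 to -0.04 when 1 replicate was left out. Chemokine and cytokine genes lay above 0 for 3 of 15, with a median of -0.31 that ran from -0.46 to -0.03 when 1 replicate was left out and was -0.07 in limma. The list summed to 63.6 to 161 UMIs per 10000 in FT (median 85.4) and 48.4 to 277 in Sham (median 101). Its most abundant member, the macrophage chemokine Ccl3, ran from 17.4 to 55.5 in FT and from 6.43 to 116 in Sham, so the Sham replicates held both the lowest and the highest values. Interferon response genes lay below 0 for 8 of 8 members. Their median was -0.16, between -0.33 and -0.11 with 1 replicate left out and -0.30 at a boundary of 4%. They ran from Isg15 at -0.80 to Ifitm3 at -0.04, and B2m, the light chain of MHC class I, had -0.09. Within Microglia-like cells, however, 4 of 7 tested interferon response genes lay above 0 (median 0.02). In Endothelial-like cells it was 2 of 8 (-0.09) and in Oligodendrocyte-like cells 1 of 2 (-0.07). Heat shock genes and chaperones lay above 0 for 15 of 19 (median 0.08), although their most abundant member Hsp90aa1 had -0.10. Targets of Atf4 in the amino acid response had a median of -0.04 with 3 of 7 above 0, and Ddit3 had -0.16. Glucocorticoid response genes had -0.02 with 4 of 10 above 0, and Nfkbia had -0.14. In limma the medians of both lists were above 0, at 0.01 and 0.02. Cholesterol synthesis genes had 0.05 with 7 of 11 above 0, and Idi1 had -0.20.

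Of 25 genes of serotonin and other monoamines 5 passed the filter, and 1 of them lay above 0 (median -0.16). The serotonin receptor gene Htr2a was at 1.45 to 2.75 UMIs per 10000 in FT (median 1.81) and 1.10 to 2.19 in Sham (median 1.93), a log2 fold change of 0.05 with an interval from -0.26 to 0.36. Htr4, another receptor of serotonin, had -0.16, and the monoamine oxidases Maoa and Maob had -0.13 and -0.22. Ddc, which makes serotonin and dopamine from their precursors, had -0.19. The intervals of these 5 genes all included 0. Neurotrophin and cAMP signalling genes had a median of 0.00 with 6 of 12 above 0, from Prkacb at -0.43 to Ntrk2 at 0.35, and the abundant phosphodiesterase Pde4b had 0.10.

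Genes of the synapse lay around 0 in the sum over all ribosome-rich cells. Receptors of glutamate and GABA had a median of 0.06 (-0.13 at a boundary of 4%) with 10 of 17 above 0, from Gria1 at -0.55 to Grik4 at 0.36. Genes of synaptic vesicle release had 0.00 with 8 of 16 above 0, and Syn2, the most abundant, had -0.19. Rab GTPases of vesicle traffic had -0.03, with 5 of 17 above 0 and Rab7a at -0.06, although that median was 0.04 in limma. Within glial and vascular classes the receptor genes stood lower in FT: 0 of 12 tested lay above 0 in Endothelial-like cells (median -0.49), 1 of 8 in Microglia-like cells (-0.60) and 3 of 11 in Oligodendrocyte-like cells (-0.35), against medians of all genes of -0.01, -0.01 and -0.02. Medians of 2 other lists were also below 0 within these classes. Neurotrophin and cAMP genes lay above 0 for 0 of 9 in Endothelial-like (-0.30), 0 of 8 in Microglia-like (-0.32) and 4 of 9 in Oligodendrocyte-like cells (-0.09). For genes of vesicle release the counts were 5 of 11 (-0.05), 3 of 7 (-0.28) and 1 of 10 (-0.13) in the same order. The receptors of glutamate and GABA are genes expressed mainly by neurons. The granule neuron markers summed to 0.294 to 3.01 UMIs per 10000 in Endothelial-like cells of FT (median 0.962) and 0.693 to 2.89 in those of Sham (median 1.80). In Microglia-like cells they summed to 1.75 to 4.43 in FT (median 3.15) and 1.30 to 6.05 in Sham (median 3.80), and in Oligodendrocyte-like cells to 2.94 to 4.42 (median 3.89) and 1.92 to 5.98 (median 3.59). The inhibitory neuron markers had medians of 0.503 in FT and 0.542 in Sham in Endothelial-like, 0.428 and 0.292 in Microglia-like, and 0.419 and 0.251 in Oligodendrocyte-like cells. The order of FT and Sham medians thus differed between classes. In the sum over all ribosome-rich cells the granule markers had medians of 3.07 in FT and 2.83 in Sham. Dock10 alone, 1 of these markers, had medians of 1.98 and 1.87 there. The granule medians of Microglia-like and Oligodendrocyte-like cells lay above those of all ribosome-rich cells, so they may not stand for neuronal RNA. The part of Dock10 in the class sums and the part of neuronal RNA in the receptor medians were not tested.

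Of the marker lists, those of astrocytes and endothelium stood farthest from the median of all genes among lists with 5 or more tested members. The 6 tested astrocyte markers lay above 0, with a median of 0.81 (0.61 to 1.01 when 1 replicate was left out), and 5 of them had an unadjusted p under 0.05, though none was called. They summed to 9.45 to 36.1 UMIs per 10000 in FT (median 12.3) and 3.55 to 15.1 in Sham (median 7.50), highest in venDG FT replicate 2. The glutamate transporter Slc1a3 was at 1.81 to 8.57 in FT and 0.447 to 4.0 in Sham, with a log2 fold change of 0.68. Astrocyte-like cells had too few replicates for a fit of their own. In other classes the astrocyte markers lay above 0 for 3 of 4 in Endothelial-like cells (median 0.25). They did so for 3 of 3 in Microglia-like (0.29) and 2 of 3 in Oligodendrocyte-like cells (0.48). Of 7 endothelial markers 1 lay above 0, with a median of -0.38, and Itm2a had -0.44. That median ran from -0.47 to -0.22 when 1 replicate was left out and was -0.22 without second reactions. Within Endothelial-like cells alone, 4 of the 7 endothelial markers lay above 0, with a median of 0.13. Oligodendrocyte markers had a median of -0.14 (1 of 10 above 0), which was -0.39 in dorDG alone, 0.15 in venDG alone and 0.02 at a boundary of 4%. Microglial markers had 0.00 (3 of 6, C1qb at 0.06), and OPC markers had 0.20, with Ptprz1 at 0.20. The single tested granule marker, Dock10, had -0.05, and committed OPC, excitatory and mural markers were represented by Bcas1 at -0.12, Nrgn at 0.06 and Vtn at 0.10. Hba1 of red blood cells had -0.81 and Ttr 1.65, with intervals from -2.39 to 0.77 and from -0.95 to 4.25.

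No gene passed the test for a fluoxetine effect that differs between dorDG and venDG. Of 3747 region by treatment terms 0 were called by edgeR (0%) and 0 by DESeq2, and the unadjusted p was under 0.05 for 117 and 120. Of the 42 genes named above from both gene groups, 0 had an unadjusted interaction p under 0.05. Fitted alone, dorDG gave 0 called genes in edgeR, with 84 at an unadjusted p under 0.05, and venDG gave 0 with 191. In DESeq2, dorDG gave 0 and venDG 6, of which 1 was higher and 5 lower in FT. Region itself, a comparison added after the data were seen, was called by edgeR for 0 of 3747 genes (0%), and for 147 the unadjusted p was under 0.05.

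Within single classes the test called a few genes, all lower in FT. Each class was summed per replicate and fitted in the same way with 9 FT and 9 Sham replicates, venDG Sham replicate 3 having under 5 cells of each class. In Endothelial-like cells edgeR called 3 of 3663 genes (0.0819%) and 220 had an unadjusted p under 0.05. DESeq2 called 4 (0.109%), adding Nlgn1, a postsynaptic adhesion gene. Fnbp1, whose F-BAR protein bends membranes in endocytosis, was at 0.201 to 1.07 UMIs per 10000 in FT (median 0.577) and 0.863 to 3.74 in Sham (median 1.27), a log2 fold change of -1.71 ± 0.34 (SE, adjusted p = 0.0986, edgeR). Lsamp, a neural adhesion molecule, was at 0 to 1.73 in FT (median 0.855) and 0.832 to 3.62 in Sham (median 2.17), with -1.62 ± 0.34 (SE, adjusted p = 0.0986, edgeR). Pex5l, known for its part in the traffic of HCN channels in neurons, was at 0.0734 to 1.29 in FT (median 0.214) and 0.416 to 1.60 in Sham (median 0.904), with -1.62 ± 0.36 (SE, adjusted p = 0.131, edgeR). The groups overlapped for each of the 3 genes, and for Pex5l the highest FT value, 1.29 in dorDG FT replicate 5, lay above the Sham median. In the sum over all ribosome-rich cells their log2 fold changes were -0.22, 0.05 and 0.08.

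The 3 calls in Endothelial-like cells did not hold under every alternative. All 3 were lost without dorDG FT replicate 4, venDG FT replicate 2, venDG FT replicate 3 or venDG Sham replicate 1, and at a boundary of 3% in place of 2%. Fitted with limma's voom and an estimated correlation between dorDG and venDG replicates of the same number, 0 genes were called, and the adjusted p was 0.428 for Fnbp1 and Lsamp and 0.329 for Pex5l. Lsamp was also lost where at least 10 cells per replicate were required (adjusted p = 0.353, edgeR). With the replicate number within each region as a block, Lsamp and Pex5l were lost (adjusted p = 0.212 and 0.314, edgeR). Over 18 fits that each left out 1 replicate, Fnbp1 stayed called in 14, Lsamp in 12 and Pex5l in 8, with log2 fold changes between -1.88 and -1.32, -1.82 and -1.46, and -1.98 and -1.44. Markers of other cells were measured beside them. Mural markers summed to 1.17 to 3.86 UMIs per 10000 in the FT sums (median 1.72) and 1.37 to 10.1 in the Sham sums (median 4.52), oligodendrocyte markers to 19.2 to 88.1 and 26.9 to 199, and erythroid markers to 1.93 to 10.7 and 0.819 to 75.1. All 7, 10 and 4 markers of these lists were detected. The part of such RNA in the 3 calls was not tested.

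Of 3249 genes tested in Oligodendrocyte-like cells, 1 was called by edgeR (0.0308%) and 1 by DESeq2, and 127 reached an unadjusted p under 0.05 in edgeR. Fars2, the mitochondrial phenylalanyl-tRNA synthetase, was at 0.255 to 0.847 UMIs per 10000 in FT (median 0.482) and 0.496 to 1.87 in Sham (median 1.0), a log2 fold change of -1.23 ± 0.25 (SE, adjusted p = 0.118, edgeR). All 9 FT replicates lay below the Sham median. It was called in 7 of 18 fits that left out 1 replicate, with log2 fold changes between -1.37 and -1.09, and also with the estimated correlation between regions (adjusted p = 0.137, limma). The Fars2 call was lost without dorDG FT replicate 2, 4 or 5, dorDG Sham replicate 1, venDG FT replicate 1, 2 or 5, or venDG Sham replicate 1, 2, 4 or 5. In Endothelial-like and Microglia-like cells Fars2 had -0.26 and -0.31, and whether it differed between classes was not tested. Fbxo2 and Gstp1, named above for the whole sum, had 1.12 and 0.46 in Oligodendrocyte-like cells (adjusted p = 0.912 for each, edgeR).

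Of 2726 genes tested in Microglia-like cells, 0 were called by edgeR (0%), where 176 had an unadjusted p under 0.05, and 1 by DESeq2 (0.0367%). That gene was Fcrl2, an Fc receptor-like gene, at 1.59 to 3.93 UMIs per 10000 in FT (median 2.71) and 0.243 to 3.41 in Sham (median 1.05), a log2 fold change of 1.22 ± 0.29 (SE, adjusted p = 0.628, edgeR). All 9 FT replicates lay above the Sham median. The largest cluster of this class, with 216 cells, was led in part by chemokine and cytokine genes. The next largest, with 91 cells, was led by RT1-Ba and RT1-Da. Within the class the 13 tested chemokine and cytokine genes had a median of -0.07, 6 of them above 0. At an adjusted p of at most 0.05 none of the 4 genes called by edgeR within classes would stand.

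**Figure D5:**
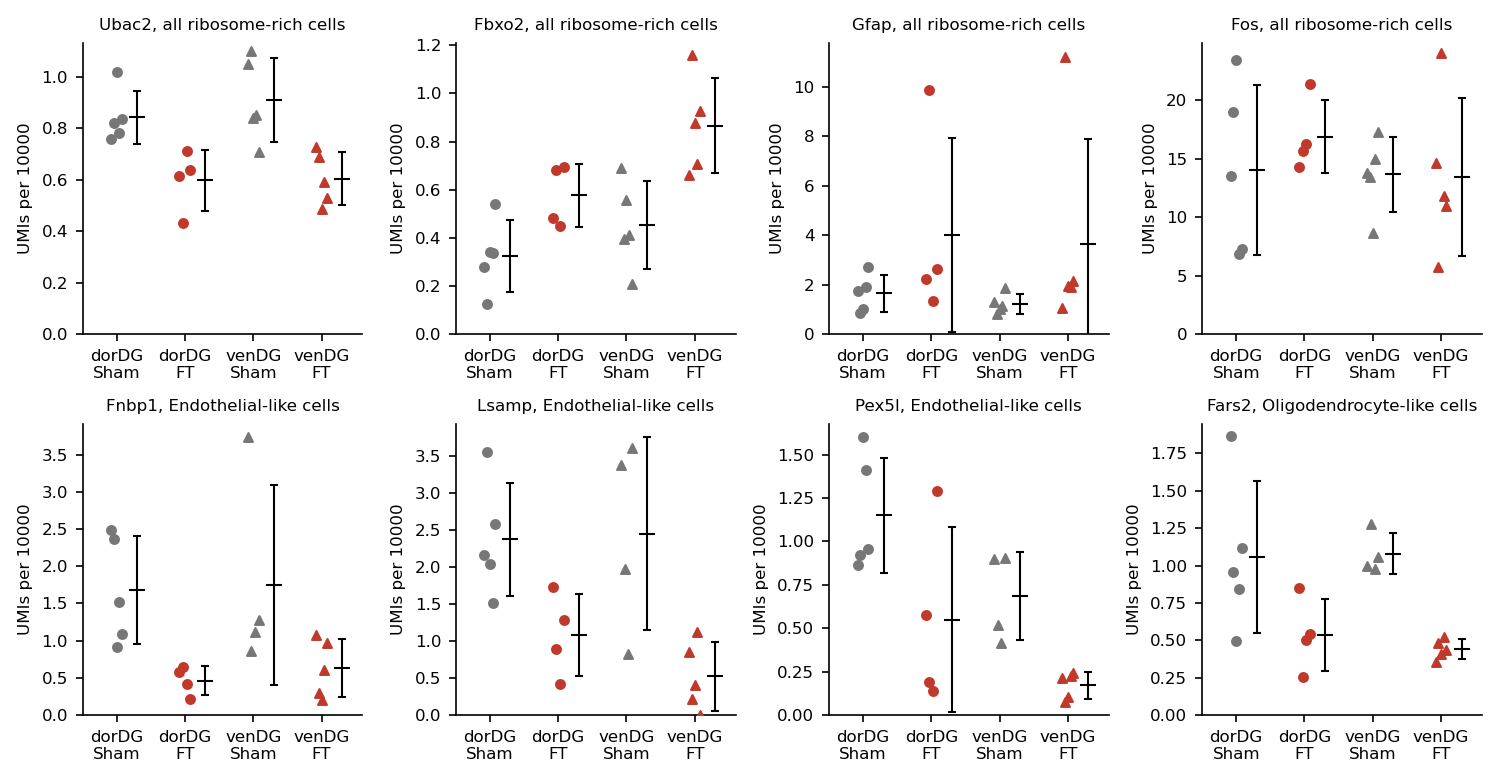
UMIs per 10000 in each replicate (symbols and colours as for the cell numbers, mean and SD to the right, bars clipped at 0) for Ubac2, Fbxo2, Gfap and Fos in all ribosome-rich cells and for the 4 genes called within classes. Gfap is high in replicate 2 of both FT groups (9.85 and 11.2), Fos overlaps fully, and Fnbp1, Lsamp, Pex5l and Fars2 lie mostly lower in FT.

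For comparison, the 1226 cells under the boundary were fitted in the same way, a comparison added after the data were seen. They held a median of 1807 UMIs per cell against 4579 in the ribosome-rich cells. Of 4439 genes tested there, Ptprn, Slc38a2 and Wipi1 were the 3 called by edgeR (0.0676%), where 386 had an unadjusted p under 0.05, and 18 were called by DESeq2 (0.405%). The list medians stood elsewhere in these cells: 0.90 for immediate early genes against -0.14 in ribosome-rich cells, 2.35 against -0.31 for chemokines and cytokines, and 0.37 against 0.15 for nuclear oxidative phosphorylation genes. The medians under the boundary cover only members that passed the filter there, whose number is not given here. Fosb and Jun, for example, did not pass it. Of all genes tested in these cells, 2127 of 4439 lay above 0. Fos had a log2 fold change of 1.75 against 0.08, and Ccl3 had 2.45 against -0.31. Neither was called in the cells under the boundary (adjusted p = 0.352 for each, edgeR). The difference in fluoxetine's effect between both kinds of cell, with each replicate as a block, passed edgeR's test for 0 of 3747 genes (0%), and for 254 the unadjusted p was under 0.05.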

How the data were processed

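UMI counts per gene and cell of dorDG and venDG were used as the authors deposited them. The submitters' processing notes name Cell Ranger, Seurat 3 and the build rn5, and their extract protocol gives Cell Ranger 2.1.0. The deposited cell type names (a table of other values) served for dorDG. A log-normalized venDG table of the authors and 170 columns whose names carry a sequencer suffix were not used. Counts were summed over ribosome-rich cells per label replicate, with reactions of 1 replicate joined.

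Genes averaging 0.5 UMIs per 10000 or more over replicates were fitted with edgeR 4.0.16 (TMM, quasi-likelihood), and DESeq2 1.42.0 and limma 3.58.1 were alternatives. Replicates within a group differed by more than sampling noise in all 36 pairs (chi-square per degree of freedom 2.54 to 11.7). Cells were clustered with scanpy 1.11.5 (2000 variable genes, 30 principal components, Leiden resolution 2.0). Clusters were named from at least 3 raised markers, more than those of any other type. A cluster stayed unnamed where markers of other types led it, or where its cells were shallow and no own marker was among the leading genes. No doublet caller was run. Class fits took replicates with at least 5 cells. Class shares and depth were compared by exact permutation within region (31752 arrangements). The chosen cells included 348 with under 1000 genes, and 1765 passed the cell filter of the study's methods.

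Named genes were those called, the 20 of smallest p (unnamed loci left out), the tested genes that the study names, and the most abundant member of each list, 1 of which is not reported here. Genes added later are said to be so. Members and lists were chosen with earlier results of these data known. Intervals and p-values measure the spread between replicates, each a pool of 3 animals. The labels do not say whether dorDG and venDG replicates of the same number share animals. By the paper's count of animals the regions most likely do share them, and most fits here treat the regions as independent. Strand was not given in the sources used here, so overlapping genes cannot be told apart. Scripts were tested on data drawn from the real means.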

Additional observations from a re-analysis of the deposited data

Results flagged for a closer look

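Within groups of 4 or 5 replicates, 228 sets of values were checked for a replicate far from the others, and 15 (6.58%) held one, where chance alone gives about 5%. Gfap was high in dorDG FT replicate 2 at 9.85 UMIs per 10000 (next 2.63) and in venDG FT replicate 2 at 11.2 (next 2.16). In venDG FT replicate 2, Nxn was high at 0.570 and Atp5d at 3.17. In venDG FT replicate 3, Ltbp1 was high at 0.686, Uqcrh at 4.84 and Sirt2 at 6.07. In dorDG FT replicate 4, Ndufv2 was high at 1.46, Cacna1a low at 0.449 and the Astrocyte-like share low at 4.46%. The median mitochondrially encoded share was low in dorDG FT replicate 5 at 6.79%. Among Sham replicates, Cyr61 was high in dorDG replicate 1 at 2.45, Cacna1a was high in venDG replicate 3 at 1.12 and the Microglia-like share was low in dorDG replicate 4 at 13%. Within Endothelial-like cells Fnbp1 was high in venDG Sham replicate 1 at 3.74 (next 1.27), and without that replicate the call of Fnbp1 was lost (adjusted p = 0.427, edgeR).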

How the results depend on the processing

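Over all ribosome-rich cells edgeR and limma called 0 genes under every alternative run, among them boundaries of 1.5%, 3% and 4%, the cell filter of the study's methods, at least 10 UMIs per gene, and leaving out each replicate or both Sham replicates of under 30 cells. DESeq2 called 3 genes, and 6 in venDG alone. Genes at an unadjusted p under 0.05 went from 149 to 261 without dorDG Sham replicate 4, and from 117 to 209 for the region by treatment term without dorDG Sham replicate 2. The region by treatment term called 0 in all of its alternatives. Within Endothelial-like cells the count went from 3 to 0 at a boundary of 3%, to 0 with an estimated correlation between regions (an alternative chosen after seeing the data), and to between 0 and 7 when 1 replicate was left out. Within Oligodendrocyte-like cells it stayed between 0 and 2 when 1 replicate was left out. Within Microglia-like cells it was 1 in DESeq2 and 1 at a boundary of 3%. In the cells under the boundary DESeq2 called 18 genes in place of 3. The causes were not tested. A block of the replicate number within each region pairs FT and Sham replicates of the same number. With it the counts were 0 over all ribosome-rich cells, 1 in Endothelial-like (Fnbp1), 2 in Microglia-like (Fcrl2 and Sec14l1) and 1 in Oligodendrocyte-like cells. In their passage on the bulk tissue, the methods say that matching Sham and FT samples were handled in parallel. Whether that holds for these reactions is not stated. FT and Sham replicates of the same number deviated together only in part (r between -0.09 and 0.30, 4 of 9 over 0.1). Replicates of dorDG and venDG with the same number and treatment had r between 0.00 and 0.36, 7 of 9 over 0.1. The fits with an estimated correlation allow for this, whereas all other fits and the permutation tests treat the regions as independent. Differences in share that changed sign when 1 replicate was left out ran from -0.940 to 0.623 points for Inhibitory neuron-like cells (positive without venDG Sham replicate 3, and 0.465 without both small Sham replicates), from -1.04 to 1.30 for OPC-like and from -1.08 to 2.44 for Oligodendrocyte-like cells. The mitochondrially encoded share moved between -0.321 and 0.146 points. None of these passed the test in any setting. At a Leiden resolution of 1.0 the Granule-like and Inhibitory neuron-like classes gave no value. Of the 70 named genes' 2296 values under alternatives, 82 had the other sign, all of them uncalled and inside the interval reported. In limma 59.6% of genes lay above 0 against 48.0% in edgeR.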
